A study of Mus musculus with 2 samples.

Results

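Mitochondrial ribosomal protein genes were taken as all genes whose symbol consists of Mrpl or Mrps, a number and at most 1 further letter, and that have at least 1 transcript typed protein_coding in the annotation. The rule found 78 genes among 55536 annotated genes, of which 22028 were protein-coding. The rule used names and types, not measured values. The samples were 2 total RNA libraries of the hippocampus, each made from 300 ng of RNA. They came from female B6CASTF1/J mice, first-generation hybrids of a laboratory strain and a wild-derived strain, at 2 months of age. Both belong to 1 group with no treatment, transgene or deletion named in the labels, so no conditions were compared. The labels call them biological replicates but give both the same donor record, so separate animals are not certain and part of the spread may be technical.

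The mitochondrial ribosome translates the 13 mRNAs of the mitochondrial genome, which encode subunits of the respiratory chain and of the ATP synthase. Its ribosomal RNAs are made in the organelle, whereas its proteins are encoded in the nucleus, made in the cytosol and imported. Some of these proteins have counterparts in bacterial ribosomes and others are known only from mitochondria. Neurons depend on oxidative phosphorylation for synaptic activity, and inherited defects of several of these genes affect brain, heart or liver. Levels are given in TPM, which scales each library's transcripts to a fixed total after correction for length, and as mean ± SD (n = 2). The values come from the authors' gene tables unless the second quantification, a separate estimate that the authors deposited for the same libraries, is named.

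Annotated genes held 30691917 expected counts in replicate 2 and 29490900 in replicate 1. Markers fitted the labelled tissue: all 6 hippocampal and all 6 neuronal markers were detected, with the hippocampal calcium sensor Hpca at 944 and 953 TPM and the synaptic protein Snap25 at 828 and 874 TPM in replicates 2 and 1. All 5 blood markers were higher in replicate 2, with a median log2 ratio of 0.79 and a summed level of 606 TPM in replicate 2 and 340 TPM in replicate 1. The summed level of 5 choroid plexus markers was 73.1 TPM in replicate 2 and 129.6 TPM in replicate 1, mainly from Ttr. In bulk RNA, fewer cells of a type and less RNA per cell cannot be told apart, and these levels are sums over all cell types of the tissue.

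All 78 members were detected, meaning at least 1 TPM in both libraries, against 58.0% of all protein-coding genes. Their median was 20.02 TPM in replicate 2 and 19.96 TPM in replicate 1 (19.99 ± 0.0495), with a summed level of 1690 ± 23.2 TPM. The median lay above 77.1% of all protein-coding genes in replicate 2 and 77.0% in replicate 1. Among detected protein-coding genes these shares were 60.5% in replicate 2 and 60.4% in replicate 1. Members held between 87.93 and 1216 expected counts each. Together they held 0.123% of the counts in replicate 2 and 0.124% in replicate 1.

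Most members stood close to each other in level. Of the 78 members, 64 averaged between 10 and 35 TPM, 7 lay below 10 TPM and 7 above 35 TPM. These bounds lie near the members' own 10th and 90th percentiles, 10.9 and 34.3 TPM in replicate 2 and 10.3 and 34.0 TPM in replicate 1. Over detected protein-coding genes these percentiles were 2.5 and 68.0 TPM in replicate 2 and 2.5 and 68.3 TPM in replicate 1. The share of other genes between the bounds was not computed. The SD over members of log2(TPM + 0.1) was 0.749 ± 0.00226, against 0.904 ± 0.0128 for 79 cytosolic ribosomal protein genes, 0.968 ± 0.0322 for 73 nuclear respiratory chain genes and 1.78 ± 0.00357 for all detected protein-coding genes. In the second quantification the same quantity was 0.725 ± 0.0162 for the members, 0.725 ± 0.0148 for cytosolic ribosomal protein genes and 0.840 ± 0.00296 for the respiratory chain genes. The 32 genes of the cytosolic small subunit were closer together than the members in both, at 0.633 ± 0.00436 in the gene tables and 0.590 ± 0.00437 in the second quantification. A narrower spread than that of cytosolic ribosomal proteins was therefore not a steady property of the family. The mean of the highest member, Mrps21 at 61.6 TPM, was 21.7 times that of the lowest, Mrpl23. The value of Mrpl23 is uncertain because of its pseudogene copy, and the next lowest member, Mrpl1, averaged 6.78 TPM. In the second quantification the means ran from 10.2 TPM (Mrps30) to 106 TPM (Mrps33). Neighbours in the order of mean levels were seldom separable: in 66 of 77 adjacent pairs the ranges over the libraries overlapped. In 75 of these pairs the authors' TPM intervals, taken here as 95% intervals, overlapped in both libraries.

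**Figure D1:**
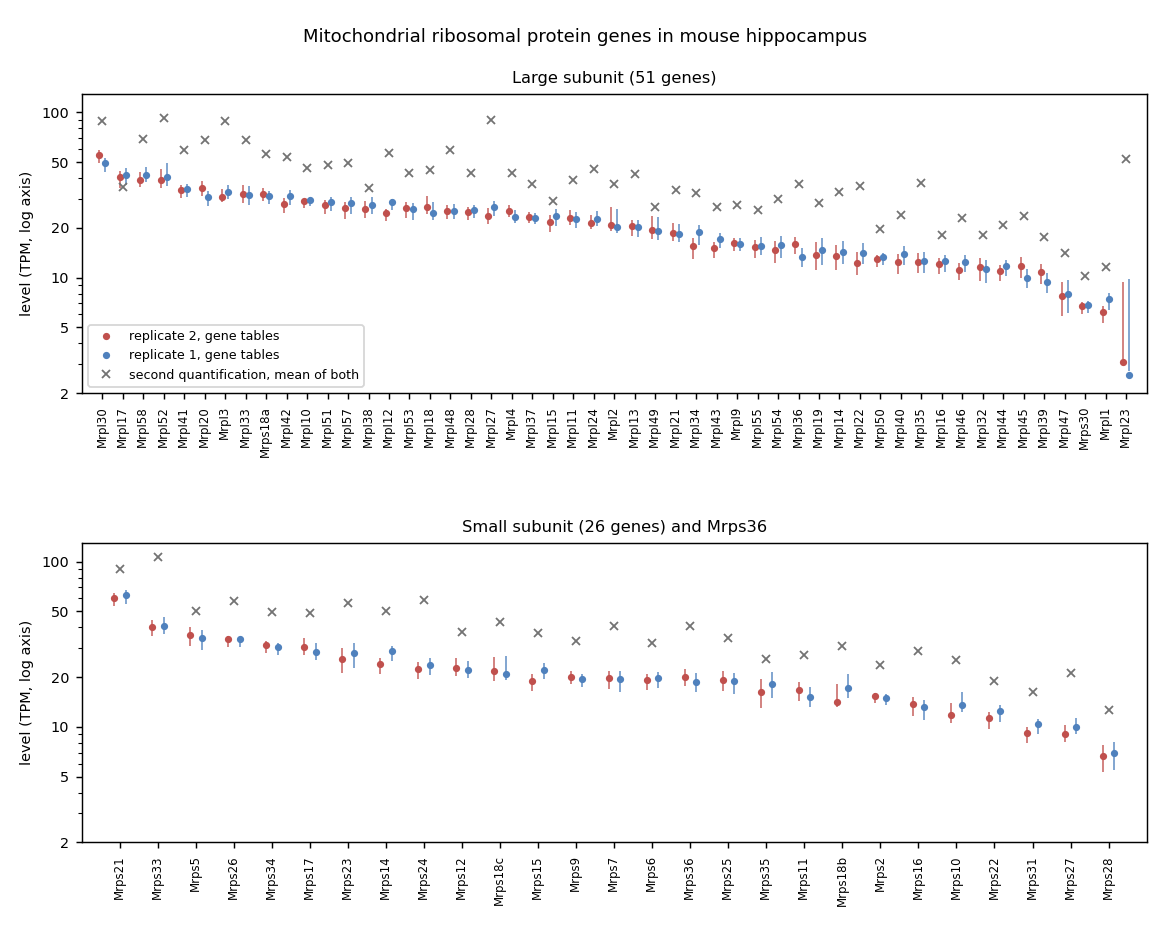
Levels of the 78 members on a log axis in TPM, the large subunit above, the small subunit with Mrps36 below, each in order of mean level. Points are the libraries (replicate 2 left, replicate 1 right), vertical lines the authors' TPM intervals, and crosses the mean of both libraries in the second quantification; most points lie between 10 and 35 TPM, and Mrpl23 stands at the low end of the gene tables.

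Large subunit genes had a median of 20.6 ± 0.382 TPM over 51 members. Of these, 30 encode proteins with bacterial counterparts and 21 encode proteins specific to mitochondria. Mrpl30, a conserved protein of the large subunit, was the highest, with 55.5 TPM in replicate 2 and 49.2 TPM in replicate 1. It lies at chr1:37890477-37898535 on the + strand (mm10). Mrpl17, the counterpart of bacterial L17, had 40.6 TPM in replicate 2 and 42.1 TPM in replicate 1. Both genes exceeded every other conserved member of the large subunit in each library of the gene tables. The second quantification ordered them otherwise: Mrpl30 ranked 6 of all 78 members, below Mrpl52, Mrpl27 and Mrpl3 of the large subunit, and Mrpl17 ranked 43.

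Mrpl58 led the mitochondria-specific proteins of the large subunit. It encodes a peptidyl-tRNA hydrolase that releases peptides from stalled ribosomes, and stood at 39.2 TPM in replicate 2 and 41.8 TPM in replicate 1. Mrpl52 had 38.98 and 40.8 TPM, and Mrpl41 33.9 and 34.6 TPM, in replicates 2 and 1. Mrpl58 and Mrpl52 overlapped in their ranges over the libraries, so their order is not resolved.

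At the low end of the large subunit stood genes of both classes. Mrpl1, whose bacterial counterpart forms the mobile stalk beside the exit site of transfer RNA, had 6.16 TPM in replicate 2 and 7.39 TPM in replicate 1. Mrps30, which by its place in the assembled ribosome belongs to the large subunit in spite of its name, had 6.76 and 6.84 TPM in replicates 2 and 1. Mrpl47, a conserved protein, had 7.69 and 7.96 TPM, and Mrpl39, specific to mitochondria, had 10.8 and 9.38 TPM. The ranges of Mrpl1 and Mrps30 overlapped. Mrpl23 was the lowest of all members in the gene tables, and its value is taken up with its pseudogene copy.

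Small subunit genes had a median of 19.6 ± 0.0247 TPM over 26 members, 16 conserved and 10 specific to mitochondria. Mrps21, the counterpart of bacterial S21, had the highest mean of all 78 members, with 60.5 TPM in replicate 2 and 62.8 TPM in replicate 1. It lies at chr3:95862634-95871519 on the - strand (mm10). Its level exceeded that of Mrpl30 in both libraries. In the second quantification Mrps33 had the highest mean of all members, followed by Mrpl52, Mrpl27 and Mrps21. Mrps33, a small protein specific to mitochondria, followed at 40.2 TPM in replicate 2 and 40.8 TPM in replicate 1. Mrps5, whose bacterial counterpart bears on decoding accuracy, had 35.9 and 34.5 TPM in replicates 2 and 1. Mrps26 had 33.9 and 33.8 TPM, and Mrps34 31.4 and 30.7 TPM, and both are specific to mitochondria.

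The lowest small subunit gene was Mrps28 (chr3:8802146-8923918, - strand, mm10), with 6.66 TPM in replicate 2 and 6.94 TPM in replicate 1. Mrps27, a pentatricopeptide repeat protein, had 9.06 and 10.04 TPM in replicates 2 and 1. Mrps31 had 9.18 and 10.4 TPM, and Mrps22, mutated in a human mitochondrial disease of the newborn, had 11.3 and 12.4 TPM. Mrps10, a conserved protein, had 11.8 and 13.6 TPM. Mrps28 lay below all other small subunit genes in both libraries, whereas Mrps27 and Mrps31 overlapped in range.

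The balance between the subunits depended on the measure. The log2 ratio of the medians, large over small, was 0.09 in replicate 2 and 0.06 in replicate 1 (0.07 ± 0.02), which did not pass 3 SD. It was 0.05 ± 0.04 in the second quantification. Past 3 SD lay 0.33 ± 0.07 with protein_coding transcripts only, 0.12 ± 0.01 without Mrpl23 and, with the opposite sign, -0.07 ± 0.02 on the mean of log2 TPM. Conserved proteins over mitochondria-specific ones gave 0.07 in replicate 2 and 0.08 in replicate 1 (0.07 ± 0.01). This passed 3 SD, as did 0.22 ± 0.03 with protein_coding transcripts only, but the mean of log2 TPM gave -0.03 ± 0.03 and the second quantification 0.15 ± 0.13, neither past 3 SD. With 2 libraries an SD can be small by chance, so passing 3 SD describes these libraries and is not a test.

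Paralogs of 1 bacterial protein did not share 1 level. Mrps18a, Mrps18b and Mrps18c all descend from the S18 family but occupy different places, Mrps18a in the large subunit and the others in the small one. Mrps18a had 32.2 TPM in replicate 2 and 31.1 TPM in replicate 1. Mrps18c had 21.7 and 20.9 TPM, and Mrps18b had 14.2 and 17.2 TPM, in replicates 2 and 1. The order Mrps18a, Mrps18c, Mrps18b held in both libraries, also in the second quantification, where it ran 56.2, 43.1 and 30.1 TPM in replicate 2 and 55.5, 43.4 and 31.7 TPM in replicate 1. Mrps36, named as a ribosomal protein but known as a subunit of the 2-oxoglutarate dehydrogenase complex, had 19.96 TPM in replicate 2 and 18.7 TPM in replicate 1. That level lay in the middle of the family, at rank 43 of 78.

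Other components of mitochondrial translation, from lists that hold none of the 78 genes, gave a scale for these levels. The 5 mitoribosome proteins named outside the Mrpl and Mrps series had a median of 29.1 ± 0.177 TPM. Members lay lower by 0.54 ± 0.01 on the log2 scale of medians. Dap3, a GTP-binding protein of the small subunit, led them at 42.4 ± 0.813 TPM, followed by Aurkaip1 at 39.3 ± 0.679 and the pentatricopeptide repeat protein Ptcd3 at 29.1 ± 0.177. Gadd45gip1 was the lowest at 9.495 ± 0.573 TPM.

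Genes that build or serve the mitoribosome were lower than its proteins. For 27 assembly genes the median was 7.93 ± 0.0919 TPM, and the members exceeded it by 1.33 ± 0.02 on the log2 scale, or 2.52-fold. The RNA helicase Dhx30 led at 60.6 ± 1.36 TPM, followed by the RNA granule protein Grsf1 at 34.6 ± 0.792 and the pseudouridine synthase Trub2 at 19.8 ± 1.22. The endoribonuclease Ybey was the lowest at 1.58 ± 0.0778 TPM. For 16 mitochondrial translation factors the members exceeded the median of 11.2 ± 1.03 TPM by 0.83 ± 0.13. The mRNA-binding partners Slirp (38.9 ± 3.85 TPM) and Lrpprc (24.4 ± 2.51 TPM) and the elongation factor Tufm (32.5 ± 1.90 TPM) led, and the release factor Mtrf1 was the lowest at 2.33 ± 0.00707. For 18 synthetases that charge mitochondrial transfer RNAs the members exceeded the median of 10.1 ± 0.145 TPM by 0.98 ± 0.02. Gars and Kars, which also serve the cytosol, stood at 52.7 ± 0.403 and 30.2 ± 0.636 TPM, Vars2 at 17.7 ± 1.14, and Pars2 was the lowest at 2.35 ± 0.0566. All these differences passed 3 SD, in the second quantification too, where they were 1.53 ± 0.03, 0.59 ± 0.10 and 0.99 ± 0.11.

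Cytosolic ribosomal protein genes were far higher. Their median over 79 genes was 172 TPM in replicate 2 and 168 TPM in replicate 1. The members lay below it by 3.09 ± 0.02 on the log2 scale, so the cytosolic genes were 8.51 times as high, and the difference passed 3 SD. Within subunits the members of the large subunit lay at -2.93 ± 0.04 and those of the small subunit at -3.14 ± 0.01 relative to their cytosolic counterparts. In the second quantification these values were -3.24 ± 0.04 and -3.21 ± 0.05, so the order of the subunits did not hold. Rplp1, a stalk protein, led the cytosolic large subunit at 618 ± 40.5 TPM, followed by Rpl41 at 569.6 ± 11.1. Rps29 led the small subunit at 475 ± 18 TPM, followed by Rps27 at 383 ± 8.40 and Rps15 at 361 ± 1.27. The lowest were Rpl27 at 14.2 ± 1.96 and Rps23 at 89.7 ± 1.66 TPM. Levels of cytosolic ribosomal protein genes may be uncertain, as many such genes are known to have near-identical pseudogenes. Copies were not searched for these genes, and their part in these levels was not tested.

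Nuclear genes of the respiratory chain and ATP synthase, into whose complexes the products of mitochondrial translation are built, had a median of 99.1 ± 1.87 TPM over 73 genes. The members lay at -2.31 ± 0.03 on the log2 scale relative to them, which passed 3 SD, and at -2.40 ± 0.03 in the second quantification. The ATP synthase beta subunit Atp5b led at 646 ± 11 TPM, followed by the cytochrome oxidase subunits Cox4i1 at 396 ± 12.5 and Cox8a at 379.5 ± 6.96. The lowest was Atp5g2 at 3.70 ± 0.834 TPM. The mRNAs of the mitochondrial genome stood at a median of 2256 ± 41.7 TPM, with the cytochrome oxidase subunit mt-Co1 highest at 6000 ± 171, then cytochrome b (mt-Cytb) at 3563 ± 133 and the complex I subunit mt-Nd1 at 3234 ± 27.7, and mt-Nd6 with the lowest mean at 195.2 ± 12.3. In replicate 2 mt-Co2 was lower still, at 154 TPM against 187 TPM for mt-Nd6, and in the second quantification mt-Atp8 was listed at 0 in both libraries. The ribosomal RNAs that the members bind stood at 41680 ± 505 TPM (mt-Rnr2, large subunit) and 32869 ± 513 TPM (mt-Rnr1, small subunit). The labels name libraries with reduced ribosomal RNA, so the levels of ribosomal RNA need not be those of the tissue.

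**Figure D2:**
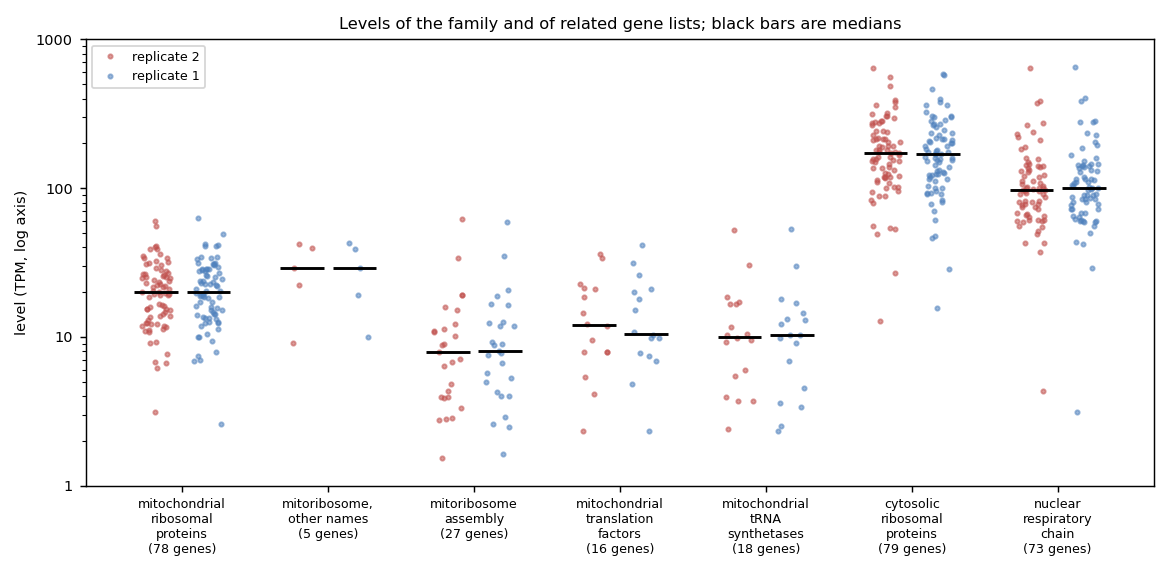
Levels in TPM on a log axis of the 78 members (left) and of the gene lists they are compared with, replicate 2 left and replicate 1 right within each list. Each point is a gene and each black bar a median: 20.02 and 19.96 TPM for the members in replicates 2 and 1, against 172 and 168 TPM for cytosolic ribosomal protein genes.

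Members with a shorter effective length, as listed by the authors for each library, tended to have higher levels. Across the 78 members, Spearman's rho between the effective length of the gene and TPM was -0.40 in replicate 2 and -0.42 in replicate 1. Pearson's r on log2 scales was -0.47 and -0.50. In the second quantification, with its own effective lengths weighted by TPM over the transcripts of a gene, rho was -0.50 and -0.55. These are correlations across genes of the same libraries, which are not independent replicates, and length also enters the calculation of TPM, so they are given as a description. Effective lengths in the gene tables, averaged over the libraries, had a median of 989 bases and a range of 316 to 3264 bases.

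Between the libraries the family barely moved. No member reached a log2 ratio of 0.5 in size, replicate 2 over replicate 1, whereas 4.02% of the 15509 genes with a mean of at least 1 CPM did (2.19% higher and 1.84% lower in replicate 2). Among detected protein-coding genes at that minimum the share was 1.53% of 12690, and none of the 79 cytosolic ribosomal protein genes or the 73 nuclear respiratory chain genes reached 0.5 either. The count of 0 was thus near the background of like genes and is not particular to the family. The median ratio was -0.03 over the members and -0.01 over all these genes. The SD over genes was 0.10 for the members and 0.16 for detected protein-coding genes at the minimum. In all, 32 members were higher and 46 lower in replicate 2, 51 ratios were smaller than 0.1 in size and 72 smaller than 0.2. The authors' TPM intervals overlapped between the libraries for all 78 members, while 4.38% of the 15509 genes and 4.69% of the 12690 protein-coding ones had intervals that did not. The direction of the small median depends on the scaling: with spike-in totals in place of TMM factors it was 0.02 for the members and 0.04 for all genes.

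The members with the largest ratios stayed far inside that threshold. Mrpl34 had 178 counts in replicate 2 and 207 in replicate 1, a log2 ratio of -0.28. Mrpl22, which lines the exit tunnel of the large subunit, had 163 and 182 counts (-0.22), Mrps14 454 and 505 counts (-0.22), Mrpl12 643 and 712 counts (-0.21) and Mrpl1 361 and 399 counts (-0.21) in replicates 2 and 1. Mrpl36 went the other way, with 295 counts in replicate 2 and 239 in replicate 1 (0.24). In the second quantification Mrpl34 reached -0.56 and was the only member past 0.5, where 3.84% of 16717 genes were. Across members the levels of replicate 2 and replicate 1 gave a Spearman's rho of 0.985 and a Pearson's r on log2 TPM of 0.987, as a description over 78 genes. As 1 library stood against 1 library, no test was made. Blood and choroid plexus markers differed between the same libraries, and their part in these ratios was not tested.

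Mrpl23 was the member on which the deposited quantifications differed most. Its product, the counterpart of bacterial L23, sits at the exit of the tunnel through which new proteins leave the ribosome. The gene (chr7:142532686-142540747, + strand, mm10) was listed at 3.10 TPM in replicate 2 and 2.58 TPM in replicate 1 in the gene tables. In the second quantification it had 52.1 TPM in replicate 2 and 52.3 TPM in replicate 1. The processed pseudogene Mrpl23-ps1 (chr2:74591330-74591909, - strand, mm10) showed the opposite pattern, with 24.4 TPM in replicate 2 and 27.1 TPM in replicate 1 in the gene tables and 0 in both libraries in the second quantification. A processed pseudogene is a copy of a spliced mRNA inserted elsewhere in the genome.

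The pseudogene holds the whole coding sequence of Mrpl23. Annotated transcripts of the pair matched over 540 bases at 100% identity, and all 438 coding bases of Mrpl23 lay in the match. The first 200 coding bases are shown because they are letter for letter the same in both annotated genes. A read that matches this annotated stretch cannot be placed by its sequence. The alleles that these hybrid mice carry were not examined.
Mrpl23 and Mrpl23-ps1: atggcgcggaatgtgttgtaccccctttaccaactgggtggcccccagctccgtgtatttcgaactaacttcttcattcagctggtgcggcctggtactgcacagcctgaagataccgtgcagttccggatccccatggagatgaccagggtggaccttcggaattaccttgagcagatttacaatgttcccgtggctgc

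The gene tables gave 72.6% of the expected counts of the pair to the pseudogene in replicate 2 and 76.3% in replicate 1. Gene and copy together had 366 counts in replicate 2 and 371 in replicate 1, at 27.6 and 29.7 TPM. The value of Mrpl23 alone is therefore uncertain. It was also the only member whose listed TPM lay outside its own interval, which ran from 3.23 to 9.35 TPM in replicate 2 and from 2.73 to 9.85 TPM in replicate 1. Without Mrpl23 the SD over members of log2(TPM + 0.1) was 0.685 ± 0.0133.

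Mrps33 has a copy of the same kind. The processed pseudogene Gm5776 (chr7:54412158-54412478, - strand, mm10) matched Mrps33 (chr6:39801804-39810988, - strand) over 321 bases at 99.7% identity, with 1 mismatch. The stretch around that base is shown, coding bases 151 to 191 of Mrps33, with the differing base in capitals.
Mrps33: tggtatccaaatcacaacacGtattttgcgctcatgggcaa
Gm5776: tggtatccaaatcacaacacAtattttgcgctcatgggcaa
Gm5776 was listed at 10.9 TPM in replicate 2 and 11.1 TPM in replicate 1 in the gene tables and at 0 in the second quantification. Mrps33 itself was listed at 40.2 and 40.8 TPM in the gene tables and at 105 and 107 TPM in the second quantification, in replicates 2 and 1. Its counts did not rise alike, at 695.5 and 670.6 in the gene tables and 669 and 658 in the second quantification. Gm5776 held 54.5 and 53.4 counts in the gene tables. In this Mrps33 differed from Mrpl23, whose counts were 100.18 and 87.93 in the gene tables and 389 and 393 in the second quantification. The cause was not tested.

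In all, 19 of the 78 members (24.4%) had a pseudogene copy elsewhere in the genome that matched a transcript over at least 200 bases at 95% identity or more. Other genes were not searched in this way, so whether this share is usual is not known. The 19 members had 24 such copies, of which 5 reached 1 TPM in both libraries in the gene tables and 12 had 0 TPM in both. Besides Mrpl23-ps1 and Gm5776, the copies at 1 TPM or more were Mrpl48-ps (4.20 and 4.08 TPM in replicates 2 and 1), the Mrps10 copy AC154457.3 (3.73 and 3.41 TPM) and the Mrps5 copy Gm13328 (2.11 and 2.59 TPM). Mrps36 has 3 named pseudogenes, all at 0 counts in both libraries. Adding the TPM of all copies to their members gave a median of 20.5 ± 0.251 TPM for the family. Overlapping genes share sequence with 13 members, 11 of them on the opposite strand, which was likewise not counted for other genes. Among these overlaps are Rab6a with Mrpl48, Mapk8ip3 with Mrps34 and Nr2c2 with Mrps25, and the sources do not say whether the counting used strand.

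The quantifications ranked the family broadly alike but moved single members far, and they differed in scale. In the second quantification Mrpl17 ranked 43 instead of 3, Mrpl27 3 instead of 28 and Mrpl23 18 instead of 78. Gene tables over second quantification, the median log2 ratio of the members was -0.84, and over detected protein-coding genes it was -0.78. For 60 of the 78 members the second quantification was between 1.5 and 2.5 times as high. Spearman's rho between them across members was 0.859 in replicate 2 and 0.860 in replicate 1. After Mrpl23 (log2 ratio -4.21) the largest differences were those of Mrpl27 (-1.84), Mrpl35 (-1.58), Mrpl3 (-1.48) and Mrpl22 (-1.44). Mrpl27, whose bacterial counterpart reaches to the peptidyl transferase centre, had 23.7 and 26.8 TPM in the gene tables and 94.7 and 86.3 TPM in the second quantification, in replicates 2 and 1. At the other end, Mrpl17 was the only member higher in the gene tables (0.24), ahead of Mrpl15 (-0.35), Mrpl38 (-0.38), Mrpl49 (-0.47) and Mrps5 (-0.53).

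**Figure D3:**
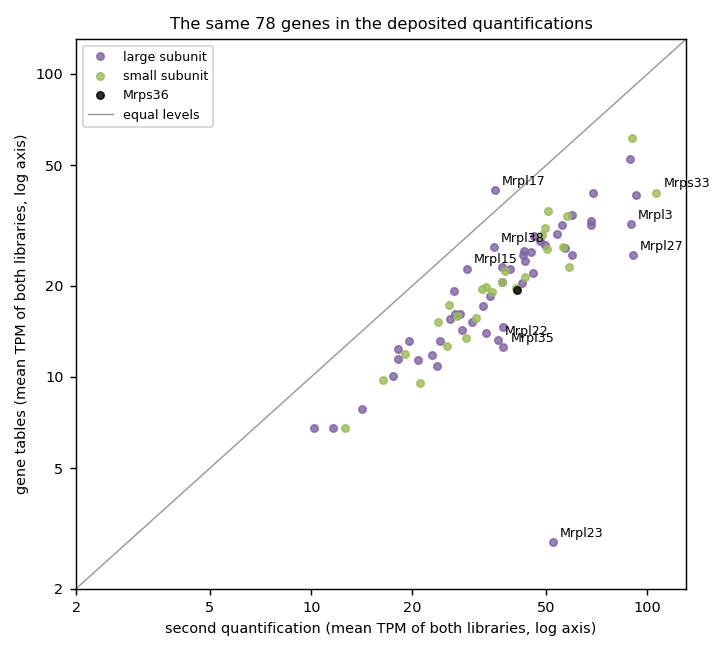
Mean TPM of both libraries in the gene tables (vertical) against the second quantification (horizontal) for the 78 members, both axes logarithmic, with the line of equal levels. Mrpl17 lies above the line and 77 members below it; Mrpl23 lies farthest from it, at a log2 ratio of -4.21.

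The annotation gives the members 343 transcripts. Of these, 170 are typed protein_coding, 88 retained_intron, 61 processed_transcript, a class without a reading frame, and 24 nonsense_mediated_decay, the class predicted to be degraded because of an early stop codon. Transcripts typed protein_coding carried 73.7% of the members' summed TPM in replicate 2 and 73.0% in replicate 1. Retained_intron transcripts carried 13.7% and 14.2%, processed_transcript 7.52% and 7.15%, and nonsense_mediated_decay 5.07% and 5.59%, in replicates 2 and 1. The median protein_coding share over members was 84.9% in replicate 2 and 86.3% in replicate 1. Over detected protein-coding genes the same median was 87.4% in replicate 2 and 88.0% in replicate 1. In 13 members all TPM lay on protein_coding transcripts in both libraries.

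Leading transcripts repeated between the libraries more often than between the quantifications. The same transcript led in both libraries for 72 of the 75 members with several transcripts (96.0%), against 88.8% of 11578 detected protein-coding genes with several transcripts. In the second quantification it was 66 of the 75, against 86.4% of those 11578 genes, so the excess was nearly gone. The exceptions were Mrpl40, Mrpl55 and Mrps10, each with protein_coding leaders that took between 31.1% and 49.6% of the gene's TPM. The leading transcript took a median of 73.7% of a member's TPM in replicate 2 and 76.8% in replicate 1, against 60.7% and 61.4% over detected genes with several transcripts. By expected counts these medians were 78.1% and 77.9% for members and 76.0% and 76.7% over the genes. Between the gene-level source and the second quantification the leader was the same for 48 of 75 members. This share was not computed for other genes, so whether it is usual is not known. Among the 27 others were high members such as Mrps21, Mrps33, Mrpl17 and Mrpl52. The leading transcript of these 27 members therefore depended on the estimate, which need not be particular to the family.

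In 16 members (20.5%) under 50% of the TPM lay on protein_coding transcripts in both libraries, against 9.56% of detected protein-coding genes. By TPM the leading transcript was typed retained_intron in 6 of them, processed_transcript in 5 and nonsense_mediated_decay in 5. By expected counts 12 of the 78 members lay under 50%, against 693 of 12786 detected protein-coding genes. Over all members, a transcript not typed protein_coding led in 17 by TPM and in 8 by expected counts. The second quantification put 17 members under 50%, against 11.6% of the same detected genes. In 11 of the 16 the share was also under 50% in both libraries of the second quantification.

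The lowest share was that of Mrps26, with 9.62% in replicate 2 and 8.54% in replicate 1 on protein_coding transcripts, and 90.4% and 91.5% on a retained_intron transcript. The second quantification gave it 9.33% and 8.00%, in replicates 2 and 1. Mrpl57 and Mrps25 also lay mainly on retained_intron transcripts, at 84.9% and 84.1% in replicate 2 and 87.0% and 84.5% in replicate 1. In Mrps16 a processed_transcript led with 88.9% in replicate 2 and 89.3% in replicate 1. A nonsense_mediated_decay transcript led in Mrpl32, with 67.8% and 70.7%. Mrpl15, Mrpl51, Mrps24, Mrpl47, Mrpl19, Mrpl13, Mrpl3, Mrpl58, Mrpl23 and Mrps11 were the others besides Mrps14, with protein_coding shares between 11.6% and 45.3% over both libraries.

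Mrps14 shows how far this depends on the estimate. In the gene-level source 11.1% of its TPM in replicate 2 and 12.2% in replicate 1 lay on protein_coding transcripts, and 100% in both libraries in the second quantification. Mrps11 differed as well, with 16.9% and 38.5% in the first and 71.8% and 78.4% in the second, in replicates 2 and 1. Mrpl23 and Mrpl58 also lay above 50% in both libraries of the second quantification. Mrpl23 had 86.1% and 91.3% there, and Mrpl58 57.9% and 63.9%, in replicates 2 and 1. Mrpl13 had 42.4% in replicate 2 and 53.3% in replicate 1 there. The part of the pseudogene copy in the share of Mrpl23 was not tested. Transcript shares in short-read data are estimates from reads that several transcripts share, and reads across single junctions were not analysed here.

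**Figure D4:**
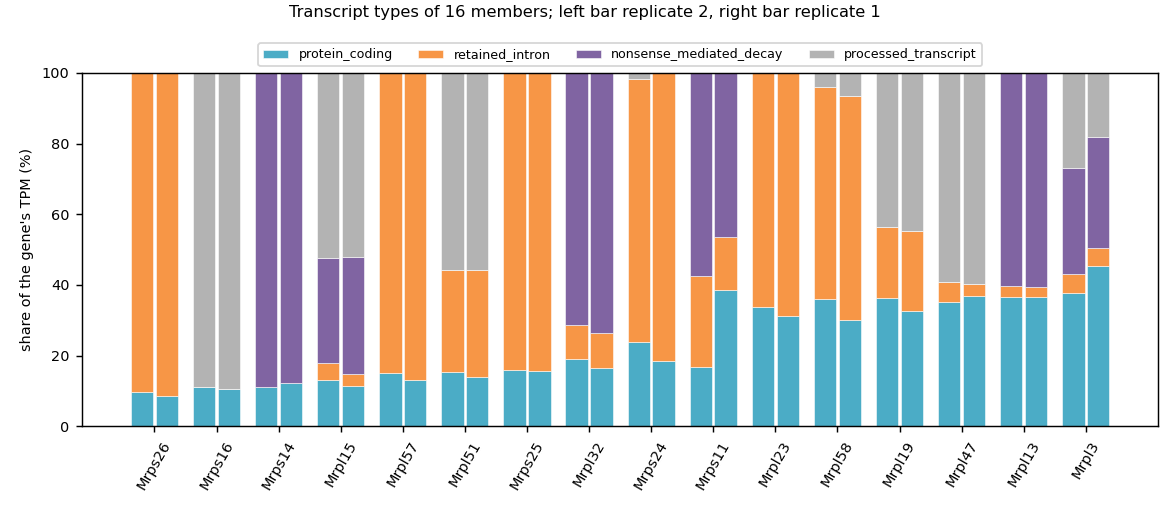
Share of each gene's TPM by transcript type for the 16 members with under 50% on protein_coding transcripts in both libraries, in percent, left bar replicate 2 and right bar replicate 1. The bars of a gene are close to each other except for Mrps11, whose protein_coding share was 16.9% in replicate 2 and 38.5% in replicate 1.

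Members lie on 17 chromosomes, with at most 11 on a single chromosome (chromosome 11). A protein-coding neighbour that starts within 1000 bases and runs the other way was annotated for 33 members (42.3%), against 15.4% of detected protein-coding genes and 10.8% of all protein-coding genes. The pairing follows from the annotation alone and was not a measure of these libraries. The starts lay within 200 bases of each other for 21 of the 33, and the annotated genes overlapped in 15. Of the partners, 27 were detected. Their levels spread far more than those of the members, between 0 and 264 TPM in replicate 2, with a median of 11.2 TPM there and 11.7 TPM in replicate 1. The 33 members had a median of 19.4 TPM in replicate 2 and 19.1 TPM in replicate 1, and the 45 others 21.5 and 22.5 TPM.

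Several partners belong to mitochondrial pathways. Mrpl46 and Mrps11 are each other's partner, 1 in each subunit, and their annotated spans overlap by 413 bases. Mrpl46 had 11.2 TPM in replicate 2 and 12.4 TPM in replicate 1, and Mrps11 had 16.7 and 15.1 TPM. Mrpl36 adjoins Ndufs6 and Mrpl47 adjoins Ndufb5, both complex I genes, at 60.9 and 75.2 TPM in replicate 2 and 60.2 and 72.3 TPM in replicate 1. Mrps12 adjoins the mitochondrial seryl-tRNA synthetase Sars2 (5.43 and 4.52 TPM), Mrpl43 the mitochondrial helicase Twnk (5.96 and 5.39 TPM) and Mrps27 the RNA-processing protein Ptcd2 (11.2 and 10.9 TPM), in replicates 2 and 1. Mrpl49 adjoins Fau, which encodes a cytosolic ribosomal protein, at 264 and 283 TPM. Partners thus lay both far above and below their members.

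Promoter windows from RefSeq (GRCm38.p6), 250 bases before to 50 bases after each start, were at hand for 69 members in 75 windows. They were searched on both strands for the letters of motifs bound by factors known to act on genes for mitochondrial proteins. The letters CCGGAAG of ETS factors such as GABPA were present in 34.7% of the members' windows, against 16.4% of 12924 windows of detected protein-coding genes. The letters CGCATGCGC of NRF1 were present in 9.33% against 3.47%, and the letters AAGATGGC of YY1 in 16% against 4.22%. As general promoter elements, CCAAT was present in 40.0% against 37.3% and TATAAA in 6.67% against 6.83%. The short ETS and CCAAT letters occur often by base composition. Median GC content was 58.7% in the members' windows and 57.0% in the 20150 windows of all protein-coding genes, detected or not. For detected genes alone it was not computed. At least 1 of the ETS, NRF1 and YY1 motifs was present in 38 of the 69 members and at least 2 kinds in 7. These counts are per gene over all its windows. They were not computed for other genes, so they have no background. A match of letters is not a site shown to be bound.

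The windows of 4 members with a divergent neighbour are shown with the ETS, NRF1 and YY1 letters, on either strand, in capitals. They were picked and are not typical: Mrpl32, Mrps12 and Mrps27 were taken because their windows hold at least 2 kinds of these motifs. Mrps11 was taken because its partner Mrpl46 is also a member. Mrps18b, with 1 ETS and 1 NRF1 match, met the same rule and is not shown. Mrpl32 (chr13:14612988-14613287, - strand), whose partner Psma2 encodes a proteasome subunit, holds 3 NRF1 matches, a pair of which overlap, and 1 YY1 match. Mrps12 (chr7:28741772-28742071, - strand) holds a YY1 and an ETS match, and so does Mrps27 (chr13:99344536-99344835, + strand). Mrps11 (chr7:78782881-78783180, + strand) holds a YY1 match. Its window shares 141 bases with that of Mrpl46, but the match lies outside them, and the Mrpl46 window holds no YY1 match. All are written 5′ to 3′ in the direction of the member.
Mrpl32: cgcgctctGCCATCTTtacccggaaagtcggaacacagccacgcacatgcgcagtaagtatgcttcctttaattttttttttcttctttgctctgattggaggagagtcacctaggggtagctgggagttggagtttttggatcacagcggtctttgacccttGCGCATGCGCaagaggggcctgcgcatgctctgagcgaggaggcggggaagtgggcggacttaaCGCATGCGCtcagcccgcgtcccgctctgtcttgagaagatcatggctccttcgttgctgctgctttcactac
Mrps12: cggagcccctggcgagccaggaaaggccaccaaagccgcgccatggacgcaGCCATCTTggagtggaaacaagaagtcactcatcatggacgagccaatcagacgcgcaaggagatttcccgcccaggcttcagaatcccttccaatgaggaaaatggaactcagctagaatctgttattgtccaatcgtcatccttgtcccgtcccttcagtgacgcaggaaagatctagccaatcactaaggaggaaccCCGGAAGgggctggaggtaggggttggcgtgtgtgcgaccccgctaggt
Mrps27: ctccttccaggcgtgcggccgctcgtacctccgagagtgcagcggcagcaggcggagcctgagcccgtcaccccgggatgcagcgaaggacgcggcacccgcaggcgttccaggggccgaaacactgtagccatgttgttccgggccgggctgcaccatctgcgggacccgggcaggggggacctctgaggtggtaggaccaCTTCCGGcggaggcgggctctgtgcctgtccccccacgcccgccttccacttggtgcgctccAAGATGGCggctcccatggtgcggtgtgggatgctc
Mrps11: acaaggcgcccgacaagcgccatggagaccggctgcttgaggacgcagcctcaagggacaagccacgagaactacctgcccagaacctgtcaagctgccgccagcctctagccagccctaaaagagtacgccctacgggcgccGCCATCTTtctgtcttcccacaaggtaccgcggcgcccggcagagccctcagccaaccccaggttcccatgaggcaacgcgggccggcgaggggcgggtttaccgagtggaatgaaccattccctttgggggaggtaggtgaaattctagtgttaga

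**Figure D5:**
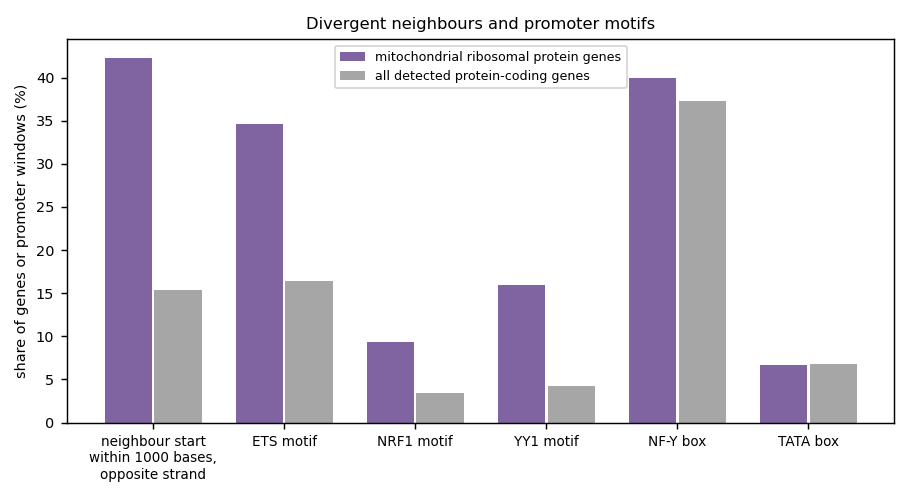
Share in percent of members (left bars) and of detected protein-coding genes (right bars) with a divergent protein-coding neighbour within 1000 bases, and share of promoter windows that hold each motif. The neighbour stands at 42.3% and 15.4%, the ETS motif at 34.7% and 16.4%, the NRF1 motif at 9.33% and 3.47%, and the YY1 motif at 16% and 4.22%, while the NF-Y (CCAAT) and TATA boxes differ little.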

How the data were processed

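The labels name 2 libraries of 1 group, with ERCC spike-in RNAs added, and the mm10 assembly. Annotation M21 is named in notes beside the files. The authors' aligner and quantification software are not given in the sources used here. Per the file headers, the authors' gene and transcript tables list expected counts and TPM values. The gene tables also list, per the file headers, a score at each end of an interval around the TPM. A further deposited transcript table lists, per its file header, estimated counts and TPM values; its values were summed per gene and are called the second quantification. The gene-level source for transcript shares is the authors' transcript table of the first kind. Spike-ins took 0.368% of all counts in replicate 2 and 0.378% in replicate 1 and stayed out of library sizes, as did 26248 further entries that name no annotated gene.

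The members and lists were chosen with earlier results of these data known, and the subunit, conservation and function lists come from general knowledge. Of the list symbols, 2 did not match a single gene and were left out. Subunits follow the place in the assembled ribosome. The named genes are the 5 highest and 5 lowest of each subunit, the 6 largest ratios between libraries, members with under 50% protein_coding TPM or with changing leading transcripts, the 5 largest differences between quantifications in each direction, the S18 paralogs, Mrps36, members with named pseudogenes, and the 3 highest and the lowest of each comparison list. The value of 1 such list gene is not reported here. Genes named as neighbours, as overlapping genes or as pseudogene copies were chosen after their values were seen.

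Levels were compared as log2 ratios of median TPM in each library, and a mean ratio over 3 times its SD was said to pass 3 SD. Ratios of replicate 2 to replicate 1 divided expected counts, after adding 0.5, by library sizes scaled with TMM factors (edgeR 4.0.16, limma 3.58.1, R 4.3.3), for genes at a mean of at least 1 CPM (counts per fixed library total). A size of 0.5 on the log2 scale was called apart. With 1 library against 1 library no p-values were computed. The coefficient of variation between libraries, from edgeR's common dispersion on rounded counts with a minimum of 10, was 4.86% over 17782 genes. On simulated data of replicate 2 over replicate 1, 95% of 200 genes given a log2 shift of 1 were called among 15481, beside 305 of 15281 unshifted genes, and a coefficient of 5% came back as 4.97%. Copies were found with BLAST 2.17.0+ among annotated transcripts. Tables were handled with pandas 2.3.3 and numpy 2.4.6 in Python 3.11.15, correlations with scipy 1.17.1 and plots with matplotlib 3.10.9. The alternatives were DESeq2 1.42.0 size factors, spike-in totals, other minimums and pseudocounts, means, protein_coding transcripts only, nuclear protein-coding scaling, assignment by symbol, expected-count shares, leaving out each replicate, and the second quantification. Adding pseudogene copies and leaving out Mrpl23 were chosen after seeing the data.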

Additional observations from a re-analysis of the deposited data

How the results depend on the processing

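No paired analysis was possible because the libraries form 1 group. The level of the family depends on its definition. The median of 19.99 TPM became 37.0 in the second quantification, 14.5 with protein_coding transcripts only and 49.5 when TPM was rescaled over nuclear protein-coding genes. It was 20.5 with pseudogene copies added, and the mean over members was 21.7. Large over small subunit, 0.07 on the log2 scale, was 0.33 with protein_coding transcripts only, 0.12 without Mrpl23 and -0.0693 on the mean of log2 TPM. Conserved over mitochondria-specific was 0.15 in the second quantification and 0.22 with protein_coding transcripts only, and its direction reversed to -0.030 on the mean of log2 TPM. The cause was not tested. Members over cytosolic ribosomal proteins stayed between -3.06 (mean of log2 TPM) and -3.34 (protein_coding transcripts only), with -3.22 in the second quantification. The spread among members was 0.725 in the second quantification, 0.704 with a pseudocount of 1, 0.691 with pseudogene copies added and 0.685 without Mrpl23. The count of members apart between libraries was 1 in the second quantification and 0 otherwise. The median protein_coding share of 85.6% was 83.6% in the second quantification and 88.4% by expected counts. The median ratio between libraries, -0.03, was 0.02 with spike-in totals, a shift smaller than the SD over members. Leaving out either replicate changed no direction; of 2 values, each lies within 1 SD of their mean by construction. With 87.93 counts on the lowest member and only 2 libraries, small differences between members are not resolved. Intervals cover counting and assignment error only.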

Other observations

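The pattern of Mrpl23, low in the gene tables and high in the second quantification, was also present at the low end of the comparison lists. Rpl27, a cytosolic large subunit gene, had 12.8 TPM in replicate 2 and 15.6 TPM in replicate 1 in the gene tables, and 228 and 237 TPM in the second quantification. Rps23, of the cytosolic small subunit, had 88.5 and 90.9 TPM in the gene tables and 613 and 577 TPM in the second quantification, in replicates 2 and 1. Atp5g2, which encodes the membrane ring subunit of the ATP synthase, had 4.29 and 3.11 TPM in the gene tables and 162 and 167 TPM in the second quantification. These genes were singled out after their values were seen, and pseudogene copies were not searched for them.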
